A study of Homo sapiens with 2 samples.

Results

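The sensors of double-stranded RNA, their adaptor and regulators, and the RNA-dependent kinase PKR were followed in PC3 cells after knockdown of SUB1, a transcriptional coactivator also called PC4. PC3 is an established cell line from a metastatic prostate cancer. The genes were IFIH1, DDX58, DHX58, TLR3, MAVS, TRIM25, EIF2AK2 and ADAR, and every array probe whose gene name was one of these symbols or an older alias was taken. DDX58 is now called RIGI, and the array names MAVS as VISA and DHX58 as LGP2. This gave 12 of the 41000 gene probes, with 1 probe for each of 4 genes (IFIH1, DDX58, DHX58 and TLR3) and 2 probes for each of the other 4. Of the 12 probes, 11 passed the filter on dim probes, and all 8 genes kept a probe.

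The cells were transfected with SUB1 siRNA 1, SUB1 siRNA 2 or a non-targeting siRNA (Non-T siRNA), transfected again 24 h later, and harvested 72 h after the first transfection. Each SUB1 siRNA had 1 dual-colour Agilent array, with Non-T RNA labelled with Cy3 and SUB1 siRNA RNA labelled with Cy5. All 3 groups had therefore received siRNA duplexes with a lipid reagent, and there were no untransfected cells among the samples. There was no dye swap and no second array per siRNA, so a ratio from a single array has no biological replicate, and dye bias and siRNA effect in a probe cannot be told apart. Whether both arrays carried the same Non-T extract is not stated, and both comparisons use Non-T cells as the control.

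Values are log2 ratios of SUB1 siRNA to Non-T siRNA after background correction and loess normalization within each array, and a gene with 2 probes is given by its brighter probe. Normalized log2 intensities of single channels were in addition made alike between the arrays by quantile normalization. A gene was called changed on an array at a fold change of at least 2, which is the rule in the methods of the study. SUB1 had a ratio of -3.30 with siRNA 1 and -3.26 with siRNA 2, which leaves 10.2% and 10.4% of the Non-T signal. On each array 43376 spots were for genes, 54.3% of them were well above background in Cy3 on either array, and 67.2% (siRNA 1) and 64.5% (siRNA 2) were in Cy5. Over 209 probes spotted 10 times, the median SD of a ratio among spots was 0.078 and 0.074, which is technical error within an array. All 5 epithelial markers were well above background in the 4 measurements (2 channels on 2 arrays), as were the luminal prostate markers KLK2 and KLK3. Of the leukocyte markers, CD3E, CD14 and CD68 were above background in the 4 measurements, whereas PTPRC and ITGAM were not. All 3 fibroblast markers (DCN, LUM and COL1A1) and 1 of 3 endothelial markers (PECAM1) were above background as well. KLK3 passed through 1 of its probes, and its RefSeq probe was not above background on either array.

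Cells detect double-stranded RNA with helicases in the cytosol and with TLR3 in endosomes. The helicases RIG-I (DDX58) and MDA5 (IFIH1) bind the adaptor MAVS on mitochondria, and TLR3 acts through its own adaptor TICAM1, and both routes lead to kinases that activate IRF3 and NF-kappaB and so to type I interferon. PKR (EIF2AK2) binds the same kind of RNA, phosphorylates the translation factor eIF2 and lowers protein synthesis, whereas ADAR edits adenosine to inosine in duplex RNA. Interferon itself raises the expression of most of these genes, and transfected siRNA duplexes are a known ligand of several of these proteins.

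IFIH1 and TLR3 were at least 2-fold higher with SUB1 siRNA 2, and no sensor gene passed 2-fold in either direction with SUB1 siRNA 1. Over all 19218 genes kept, 0.614% were at least 2-fold higher with siRNA 2 and 0.208% with siRNA 1. None of the 8 genes was at least 2-fold lower, where 1.07% of all genes (siRNA 2) and 0.609% (siRNA 1) were. The median ratio of the 8 genes was 0.02 with siRNA 1 and 0.41 with siRNA 2, beside a median of 0.02 over all genes on either array. DHX58 was kept through its Cy5 channel alone, and without it the medians of the other 7 genes were 0.0013 and 0.46. Of these 7 ratios, 4 were above 0 with siRNA 1 and 7 with siRNA 2, where 10397 and 10303 of the 19218 genes were.

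**Figure D1:**
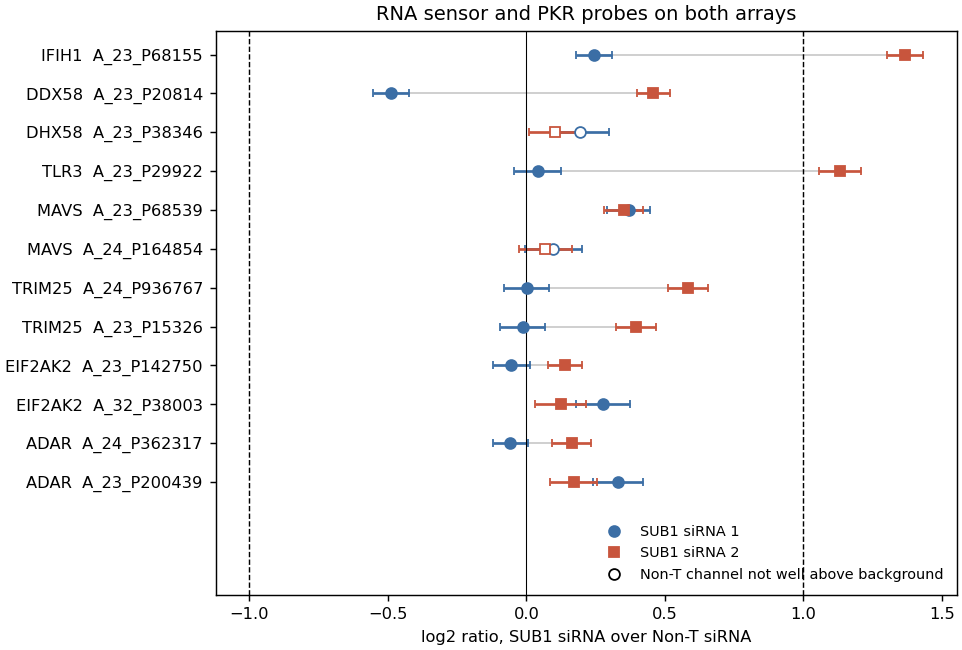
Log2 ratio of SUB1 siRNA to Non-T siRNA (x axis) for each of the 12 probes (y axis), with siRNA 1 as circles and siRNA 2 as squares. Bars are the technical SD, taken from probes of similar intensity spotted 10 times, the dashed lines mark 2-fold, and open symbols are probes whose Non-T channel was not well above background on either array. The siRNA 2 values of IFIH1 (1.37) and TLR3 (1.13) lie beyond the upper line, and DDX58 lies at -0.49 with siRNA 1 and 0.46 with siRNA 2.

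IFIH1 encodes MDA5, the helicase that detects long double-stranded RNA. Its probe (A_23_P68155, NM_022168, chr2:162837052-162837111 in hg18, the build in the file headers) had a normalized log2 intensity of 11.39 and 11.41 in Non-T cells on the siRNA 1 and the siRNA 2 array, 11.64 with siRNA 1 and 12.78 with siRNA 2. The siRNA 2 value thus stood well above the other 3 measurements, and the siRNA 1 value was slightly above both Non-T values. The log2 ratio was 0.24 with siRNA 1 (1.18-fold, technical SD 0.064 from 33 probes of similar intensity) and 1.37 with siRNA 2 (2.58-fold, technical SD 0.066). Over all genes the siRNA 2 ratio was at percentile 99.9 and the siRNA 1 ratio at percentile 82.3.

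TLR3 encodes the endosomal receptor for double-stranded RNA. Its probe (A_23_P29922, NM_003265, chr4:187242884-187242943 in hg18) was dimmer, with raw Cy3 intensities of 214 and 199 against local backgrounds of 50.5 and 47. Its normalized log2 intensity was 7.57 and 7.71 in Non-T cells, 7.61 with siRNA 1 and 8.84 with siRNA 2. The siRNA 1 value lay between the Non-T values, and the siRNA 2 value above all 3. The log2 ratio was 0.04 with siRNA 1 (1.03-fold, technical SD 0.085) and 1.13 with siRNA 2 (2.19-fold, technical SD 0.076, percentile 99.7).

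DDX58 encodes RIG-I, which detects short duplex RNA with phosphorylated ends. Its probe (A_23_P20814, NM_014314, chr9:32447019-32447078 in hg18) had a normalized log2 intensity of 11.58 and 11.57 in Non-T cells, 11.09 with siRNA 1 and 12.03 with siRNA 2. After this normalization between arrays the Non-T values nearly coincided, with siRNA 1 below both and siRNA 2 above both. The raw Non-T (Cy3) intensities were 3001 and 2526. The log2 ratio was -0.49 with siRNA 1 (technical SD 0.066, percentile 4.57) and 0.46 with siRNA 2 (technical SD 0.060, percentile 93.3), and neither reached 2-fold.

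DHX58 encodes LGP2, the third helicase of this family, which lacks signalling domains and modulates the other two. Its only probe (A_23_P38346, NM_024119, chr17:37506985-37507044 in hg18) was not well above background in Non-T cells on either array. Set against the lowest signal among probes well above background, its siRNA 1 signal gave a factor of 1.05 and its siRNA 2 signal a factor under 1, and no fold is given. Its measured normalized log2 intensities were 6.16 and 6.28 in Non-T cells, 6.35 with siRNA 1 and 6.39 with siRNA 2. The measured ratios, 0.19 and 0.10, turned to -0.32 and -0.24 in the table of ratios normalized by the authors, so DHX58 has no settled direction.

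**Figure D2:**
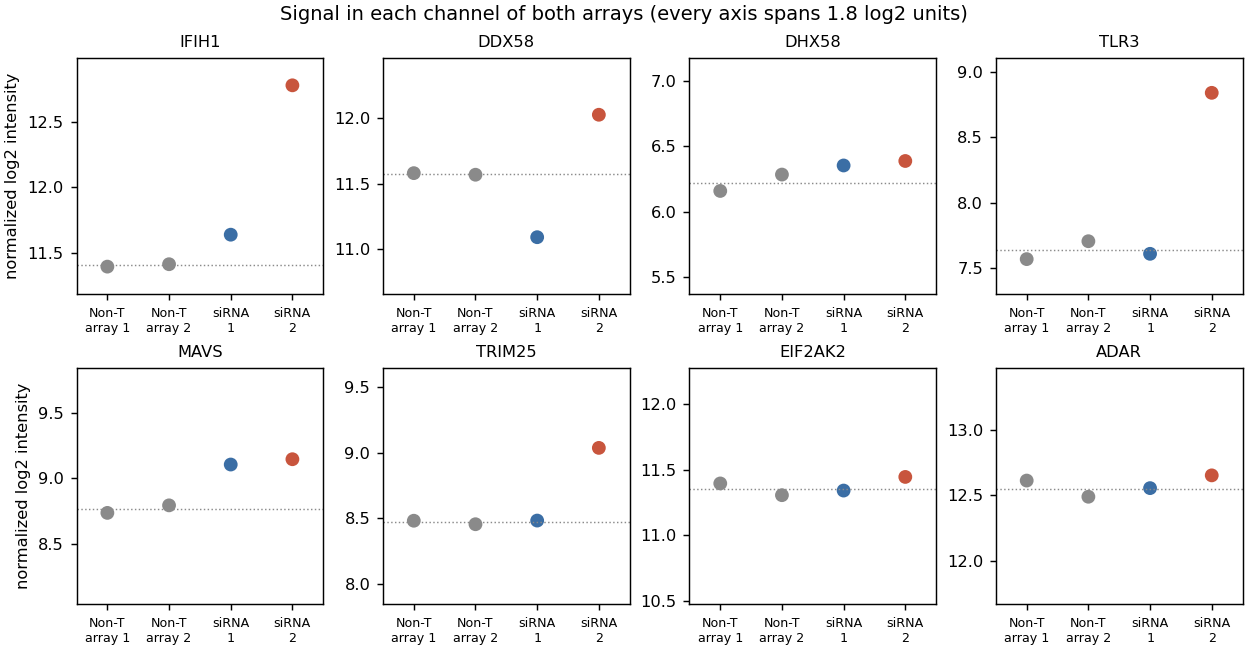
Normalized log2 intensity (y axis, the same span in every panel) of the 8 genes in the 4 measurements, with Non-T cells of the siRNA 1 array (array 1) and the siRNA 2 array (array 2) in grey and cells with SUB1 siRNA 1 and SUB1 siRNA 2 in colour. The dotted line is the mean of the Non-T values, and a gene with 2 probes is shown by its brighter probe. In the 7 genes other than DHX58, whose Non-T channel was not well above background, the siRNA 2 value was the highest of the 4. The margin was widest in IFIH1 and TLR3. It was small in MAVS (9.14 against 9.10), ADAR (12.65 against 12.61) and EIF2AK2 (11.45 against 11.40). The technical SDs of the siRNA 2 ratios of these genes were 0.070, 0.071 and 0.061. In the second probes of EIF2AK2 and ADAR, not drawn here, the siRNA 1 value was the highest (7.45 and 7.79, against 7.33 and 7.68 with siRNA 2).

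MAVS, the mitochondrial adaptor of both helicases, had nearly the same ratio on either array. Its brighter probe (A_23_P68539, chr20:3796217-3796276 in hg18) had a normalized log2 intensity of 8.73 and 8.79 in Non-T cells, 9.10 with siRNA 1 and 9.14 with siRNA 2. Both SUB1 siRNA values were above both Non-T values. The log2 ratio was 0.37 with siRNA 1 and 0.35 with siRNA 2, against technical SDs of 0.077 and 0.070. The second MAVS probe (A_24_P164854, chr20:3796310-3796369) was the probe that did not pass the filter, and its measured ratios were 0.10 and 0.07.

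TRIM25, the ubiquitin ligase that activates RIG-I, was measured by a pair of probes that gave a similar picture. The brighter (A_24_P936767, NM_005082, chr17:52321835-52321894 in hg18) had normalized log2 intensities of 8.48 and 8.46 in Non-T cells, 8.48 with siRNA 1 and 9.04 with siRNA 2. Its log2 ratio was 0.0013 with siRNA 1 and 0.58 with siRNA 2 (technical SD 0.081 and 0.072). The other (A_23_P15326, chr17:52323802-52323861) had -0.01 and 0.40. With siRNA 2 both probes were thus above Non-T and below 2-fold.

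EIF2AK2, which encodes PKR, stayed close to the Non-T level. Its brighter probe (A_23_P142750, NM_002759, chr2:37189890-37195384 in hg18, a span of 5495 bases where the other probes cover 60) had normalized log2 intensities of 11.40 and 11.31 in Non-T cells, 11.34 with siRNA 1 and 11.45 with siRNA 2. The siRNA 1 value lay between the Non-T values. The log2 ratio was -0.05 with siRNA 1 (technical SD 0.067) and 0.14 with siRNA 2 (technical SD 0.061). The second probe (A_32_P38003, chr2:37181088-37181147) had 0.28 and 0.12, so the probes differed in sign with siRNA 1 and in which siRNA gave the higher ratio.

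ADAR, the editing enzyme, was likewise near the Non-T level. Its brighter probe (A_24_P362317, NM_001111, chr1:152821354-152821413 in hg18) had normalized log2 intensities of 12.61 and 12.49 in Non-T cells, 12.56 with siRNA 1 and 12.65 with siRNA 2. The siRNA 1 value lay between the Non-T values, and the siRNA 2 value just above the higher of them. The log2 ratio was -0.06 with siRNA 1 and 0.16 with siRNA 2 (technical SD 0.062 and 0.071), and the second probe (A_23_P200439, chr1:152823851-152823910) had 0.33 and 0.17. As for EIF2AK2, the probes of ADAR differed in sign with siRNA 1 and in which siRNA gave the higher ratio. With median centring in place of loess, the scanner software's processed signals or the ratios normalized by the authors, the siRNA 1 ratios of EIF2AK2 and ADAR were above 0 (EIF2AK2 0.20, 0.03 and 0.03, ADAR 0.25, 0.02 and 0.02).

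The difference between the siRNAs, siRNA 2 minus siRNA 1, was positive in 6 of the 7 genes whose Non-T channel was above background and had a median of 0.58 over them, beside a median of -0.0021 over all genes, where 9528 of 19218 were positive. With the dim DHX58 included the median was 0.40. It was 1.12 for IFIH1 (2.18-fold, percentile 99.6), 1.09 for TLR3 (percentile 99.5), 0.95 for DDX58 (1.93-fold, percentile 99.2) and 0.58 for TRIM25 (percentile 97.0). It was 0.22 for ADAR, 0.19 for EIF2AK2 and -0.02 for MAVS, and for DHX58 the values are too dim to give it. These are values of the brighter probes. The second probes of ADAR and EIF2AK2 had differences of -0.16 and -0.15, so the positive sign of these 2 genes depends on the probe. IFIH1 and TLR3 passed 2-fold in this difference, as did 0.65% of all genes in that direction. With 1 array per siRNA the difference has no test. Its technical SD, which covers the spread among spots alone, was 0.064 for IFIH1, 0.095 for TLR3 and 0.062 for DDX58.

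The part of each channel in that difference can be read separately, in intensities made alike between the arrays by quantile normalization. The Non-T (Cy3) signals of the 8 genes differed between the arrays by -0.12 to 0.14, with a median of 0.0031, and the SD of this difference over all genes was 0.117. The SUB1 siRNA (Cy5) signals differed by 0.03 to 1.23, with a median of 0.33, and the SD over all genes was 0.313. For IFIH1 the Cy3 difference was 0.02 and the Cy5 difference 1.14, and for DDX58 they were -0.01 and 0.93. In TLR3 they were 0.14 and 1.23, and in TRIM25 -0.03 and 0.55, so in these 4 genes the Cy5 channel, which held the RNA of SUB1 siRNA-treated cells, carried the larger part. In ADAR the Cy3 difference was -0.12 and the Cy5 difference 0.10, and in EIF2AK2 they were -0.09 and 0.10, so both channels took part in their small differences.

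**Figure D3:**
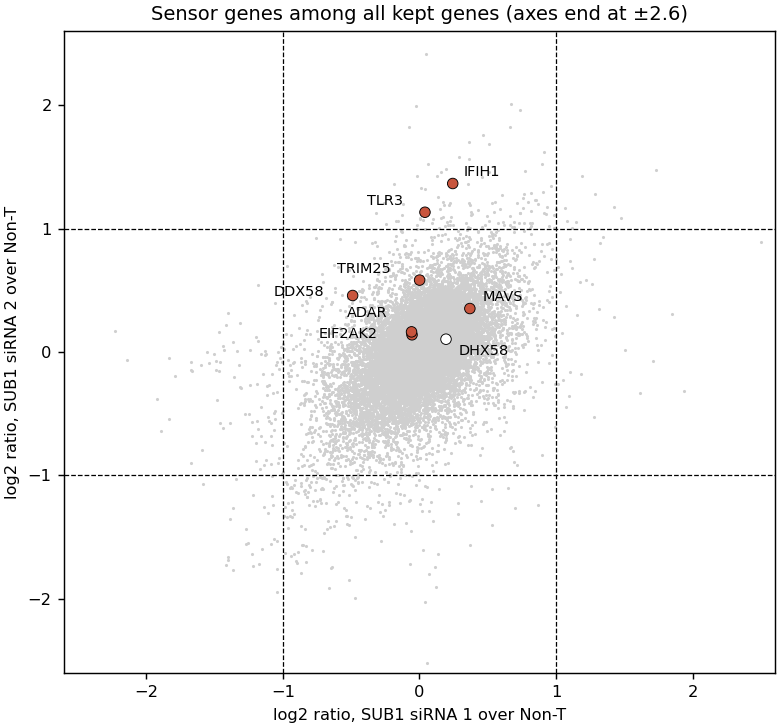
Log2 ratio with SUB1 siRNA 1 (x axis) against log2 ratio with SUB1 siRNA 2 (y axis) for all 19218 genes kept (grey) and the 8 sensor genes (coloured, with DHX58 open since its Non-T channel was not well above background). Dashed lines mark 2-fold on each array, and IFIH1 and TLR3 lie above the upper line at siRNA 1 ratios of 0.24 and 0.04; both arrays have Non-T cells as the control, and genes beyond the axis ends are not drawn.

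Over both siRNAs, limma's moderated test of the mean log2 ratio against 0 (n = 2) with Benjamini-Hochberg adjustment over all genes called none of the 8 genes, and it called 0.0052% of all genes, which is SUB1 alone. At an unadjusted p under 0.05 it passed 2 of the 8 genes, IFIH1 and MAVS, and 4013 of 19218 genes. The mean ratio was 0.80 ± 0.28 (SE) for IFIH1 (limma adjusted p = 0.219), 0.59 ± 0.27 for TLR3 (adjusted p = 0.302) and 0.36 ± 0.095 for MAVS (adjusted p = 0.159). For DDX58, whose ratios had opposite signs, the mean was -0.02 ± 0.24 (limma adjusted p = 0.976). This test takes the siRNAs as replicates of a SUB1 knockdown, so a ratio that differs between the siRNAs widens its error, and it leaves out the spread of the Non-T control.

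The region around the start of a gene can hold the short motifs at which interferon-activated factors bind. Windows from 250 bases before to 50 bases after the annotated start were taken from RefSeq (GRCh38.p14) and were found for 7 of the 8 genes, DDX58 under the symbol RIGI, with 3 windows for ADAR. The letters GAAA, any 2 bases and again GAAA, the core of the interferon-stimulated response element, were searched on both strands and were in 3.57% of 35116 windows of this length. They were in the windows of 3 genes, IFIH1, TLR3 and EIF2AK2. The letters TTCNNNGAA, at which STAT dimers bind and which read the same on either strand, were in 7.66% of all windows and among these genes in that of TLR3, at positions -178 to -170 and -50 to -42. The stretches that hold the first motif follow on the strand of the gene, since they belong to the 2 genes called with siRNA 2 and to EIF2AK2, which was not; capitals mark the match.
IFIH1, chr2:162318821-162318850, minus strand: aattcgcTTTCCTTTTCTGTTTCccgcggt
IFIH1, chr2:162318686-162318715, minus strand: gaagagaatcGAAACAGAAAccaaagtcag
TLR3, chr4:186069142-186069171, plus strand: caagctttacTTTCACTTTCgagagtgccg
EIF2AK2, chr2:37156967-37156996, minus strand: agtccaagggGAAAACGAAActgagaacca

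The first IFIH1 stretch holds 2 matches that overlap (-159 to -150 and -153 to -144), both on the opposite strand, and the second holds a match at -21 to -12. The TLR3 match (-4 to 6) and the EIF2AK2 match (-6 to 4) lie across the annotated start, where positions run from -1 to 1 without a 0. IFIH1 and TLR3, with ratios of 1.37 and 1.13 with siRNA 2, and EIF2AK2, with 0.14, thus share the motif. DDX58, MAVS, TRIM25 and ADAR did not have these letters in their windows, which says nothing of other stretches or of other spellings. A match is a description of the sequence and no measurement of binding.

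**Figure D4:**
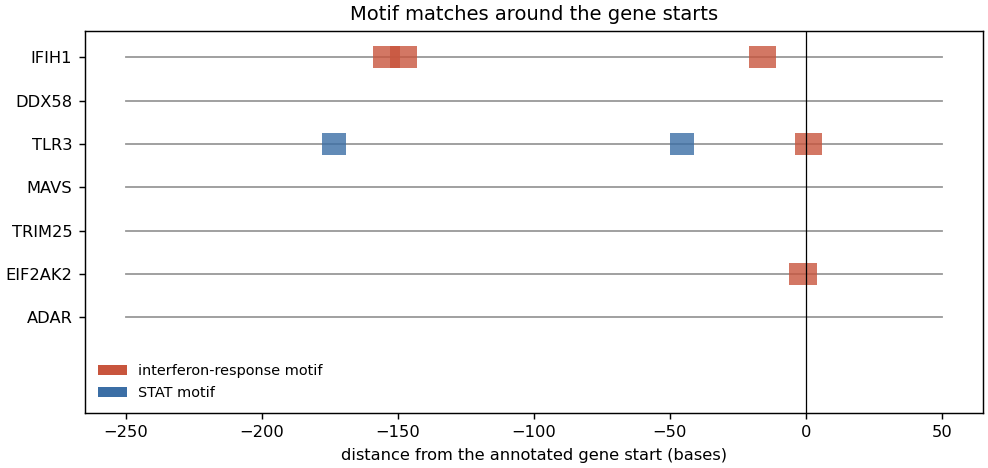
Positions of the 2 motifs (coloured blocks) in the windows around the annotated start of the 7 genes with a window (lines), with the distance from the start in bases on the x axis. The interferon-response motif is found 3 times in IFIH1 and at the start of TLR3 and EIF2AK2, and the STAT motif 2 times in TLR3.

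The proteins that modify or assist the sensors had median ratios close to those of all genes on both arrays. Of 25 such cofactors and regulators 23 were kept, TLR7 and TLR8 being too dim, and none reached 2-fold on either array (0.208% and 0.614% of all genes were higher). Their median ratio was 0.01 with siRNA 1 and -0.05 with siRNA 2, and 12 of 23 had a higher ratio with siRNA 2. The largest ratios were those of NLRX1, a mitochondrial protein that inhibits MAVS, with 0.13 and -0.80, and of DDX60, a helicase that assists RIG-I, with -0.67 and -0.19.

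All 25 genes of the signalling steps after MAVS and TLR3 were kept, and none reached 2-fold, against the same shares of all genes. Their median ratio was -0.00019 with siRNA 1 and 0.12 with siRNA 2, and 16 of 25 were higher with siRNA 2 than with siRNA 1. NFKBIA, the inhibitor of NF-kappaB and itself a target of it, had 0.69 and 0.38, and TANK, an adaptor of the kinase TBK1, had 0.03 and 0.56. Chosen after their values were seen, TBK1 had 0.13 and 0.51, TICAM1, the adaptor of TLR3, had -0.28 and 0.08, and the transcription factors IRF3 and IRF7 had -0.09 and -0.33, and -0.27 and 0.36.

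Of 21 interferons and interferon receptor subunits, 20 had a probe and 10 were kept. IFNA1 had no probe, and the receptor subunit IFNAR2, IFNG and every IFNA gene with a probe except IFNA4 did not pass the filter. None of the 10 kept genes reached 2-fold, beside 0.614% of all genes higher with siRNA 2. Their median ratio was 0.04 with siRNA 1 and 0.13 with siRNA 2. This median includes 4 genes (IFNB1, IFNL1, IFNE and IFNA4) whose Non-T channel was not well above background on at least 1 array. It therefore rests in part on dim values. Among the ligands IFNB1, IFNL1 and IFNE were not well above background in Non-T cells on either array, and their measured ratios are near the limit of detection: IFNB1, the type I interferon made by most cells, had 0.11 and 0.37. Among the receptors, IFNGR1 had 0.26 and 0.49 and IFNLR1 had -0.02 and 0.45.

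The genes around PKR were the other kinases of eIF2, the eIF2 and eIF2B subunits, the phosphatase subunits that reverse PKR, and the transcription factors made when eIF2 is phosphorylated. All 16 were kept, 1 was at least 2-fold higher with siRNA 2 (0.614% of all genes) and none with siRNA 1 (0.208%), and the median was -0.11 and -0.02. The gene was DDIT3, the stress-induced transcription factor CHOP, with 0.17 with siRNA 1 and 1.096 with siRNA 2 (limma adjusted p = 0.238 over both). Of the other 3 eIF2 kinases, EIF2AK1 had -0.02 and 0.53, EIF2AK3, the kinase PERK of the endoplasmic reticulum, had -0.88 and 0.19, and EIF2AK4 had 0.06 and -0.08. PKR itself had -0.05 and 0.14. ATF4, the factor translated when eIF2 is phosphorylated, had -0.22 and 0.67. The kinases other than PKR and ATF4 were chosen after their values were seen.

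Of 22 other proteins that bind or edit double-stranded RNA 20 were kept, and their median ratio was -0.02 (siRNA 1) and 0.11 (siRNA 2). A single gene was at least 2-fold higher (0.614% of all genes with siRNA 2), OASL, an interferon-induced protein that enhances RIG-I signalling, with -0.19 with siRNA 1 and 1.36 with siRNA 2 (limma adjusted p = 0.427). Its siRNA 2 ratio was thus close to that of IFIH1. The enzymes OAS1, OAS2 and OAS3, which make a signalling nucleotide when they bind double-stranded RNA and were chosen after their values were seen, had -0.37, -0.52 and -0.02 with siRNA 1 and 0.54, 0.44 and 0.30 with siRNA 2. PRKRA, the protein activator of PKR, had -0.39 and -0.28. In all 5 lists together, as in the sensors, limma called no gene after adjustment, and at an unadjusted p under 0.05 it passed 2 of 23, 4 of 25, 1 of 10, 4 of 16 and 5 of 20 genes in the order given here, where 20.9% of all genes passed.

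**Figure D5:**
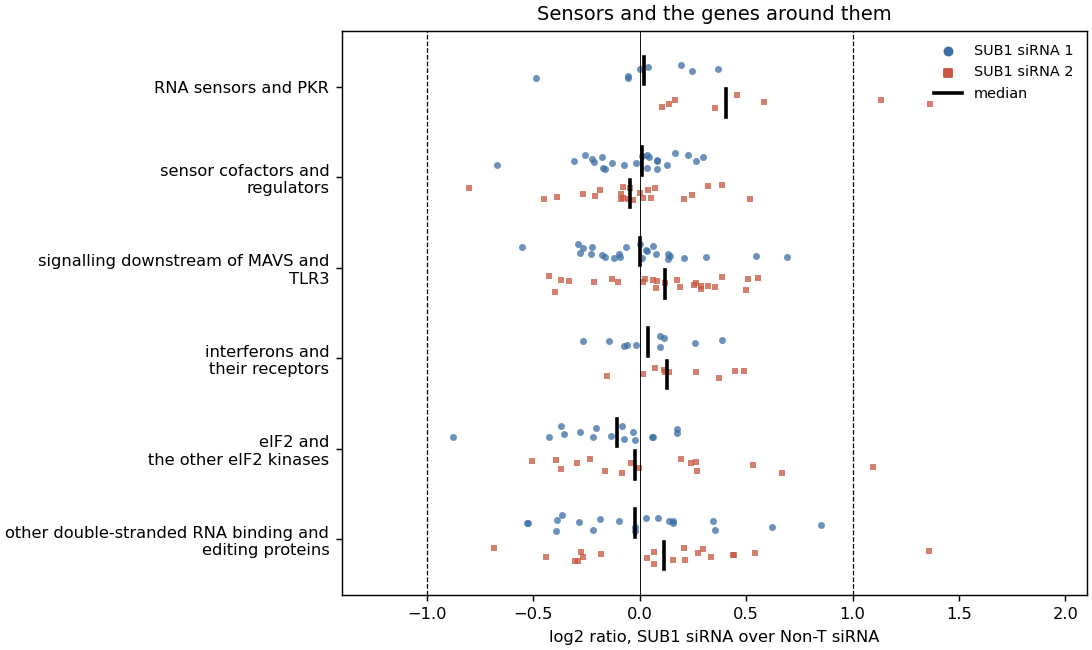
Log2 ratio of SUB1 siRNA to Non-T siRNA (x axis) of each gene kept in the sensor group and in the 5 lists around it (y axis), with siRNA 1 as circles, siRNA 2 as squares and the median of each as a black bar. The sensor medians are 0.02 and 0.41, and in the other lists the only points past 2-fold (dashed lines) are DDIT3 (1.096) and OASL (1.36), both with siRNA 2.

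The genes whose pair of ratios lay nearest to that of IFIH1, by Euclidean distance over the 2 log2 ratios, were APOL3 (distance 0.111, ratios 0.35 and 1.36), GBP1 (0.124, ratios 0.16 and 1.46) and JUNB (0.129, ratios 0.19 and 1.48). Within a distance of 0.2 of IFIH1 there were 9 genes. Nearest to TLR3 were the transcripts THC2676635 (0.058) and AK023391 (0.064), which carry no gene symbol, and C17orf67 (0.067), and 26 genes lay within 0.2. A likeness over 2 arrays is a description of 2 values.

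The leukocyte markers, as a check on other cells that express these sensors, were also measured. The 4 of these that were kept had ratios of -0.29 to 0.10 with siRNA 1 and 0.09 to 0.58 with siRNA 2. Their highest and lowest ratios were those of CD68, which epithelial lines also express, with -0.29 and 0.58, and PTPRC, the pan-leukocyte marker, was not above background. The summed linear level of the 4 was 648 and 680 in Non-T cells, 589 with siRNA 1 and 895 with siRNA 2. CD68 weighs most in this sum, with a mean log2 intensity of 8.64 where CD3E, CD14 and ITGAM had 6.71, 6.70 and 6.32. The 5 epithelial markers (KRT8, KRT18, KRT19, EPCAM and CDH1) had lower ratios with siRNA 2 than with siRNA 1, with medians of 0.20 with siRNA 1 and -0.14 with siRNA 2 and a median difference of -0.37. Among the fibroblast markers COL1A1 had 0.66 and 0.45, LUM 0.47 and -0.23, and DCN -0.19 and -0.11. The part of these markers in the sensor ratios was not tested. In RNA from whole cultures, more RNA per cell and more cells that carry it cannot be told apart.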

How the data were processed

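The authors hybridised RNA of SUB1 siRNA and Non-T siRNA cells to 2 dual-colour arrays, quantified them with Agilent Feature Extraction 9.5.1.1 and deposited spot intensities of both channels with local background. They also deposited log2 ratios per probe, normalized by loess per the study's methods, which were used as an alternative. Here mean signals were corrected by normexp (offset 50), control spots dropped, and ratios normalized with limma 3.58.1 (R 4.3.3) by loess within arrays (span 0.3). For single-channel intensities, the mean intensity of both channels was then quantile normalized between arrays (limma's Aquantile), which leaves the ratios unchanged. This step was not varied among the alternatives. Outlier spots (112 and 100) were left out and spots of a probe averaged. Probes with at least 0.5 of their spots well above background in 1 or more channels on both arrays were kept (25673 of 41000). The brightest probe stood for each gene. Of 19218 genes, 13129 were named through a RefSeq table and 6089 by the array. The technical SD of a probe is the median among probes spotted 10 times within 1 log2 unit of its intensity. Probe coordinates are those of the file headers. The number of arrays limits the precision.

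The changed-gene rule was 2-fold on each array, and limma (lmFit, eBayes) tested the mean over both siRNAs. Every probe of the 8 genes was named, with SUB1, from each list up to 4 genes past 2-fold or otherwise the 2 with the largest absolute ratio, and the 3 nearest genes of each member past 2-fold. The genes and lists were chosen with earlier results of these data known. Alternatives were other background corrections, the software's processed signals, the authors' ratios, median centring, other filters, outlier spots kept, the mean of all probes, and other limma priors. Some genes of the lists are not reported here by name.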

Additional observations from a re-analysis of the deposited data

Results flagged for a closer look

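The ratios of 4 probes, each the bright or the second probe of a sensor gene, had opposite signs with the 2 siRNAs, and these differences were not tested, since each siRNA had 1 array. DDX58 was at -0.49 with siRNA 1 and 0.46 with siRNA 2, a difference of 0.947 in log2. EIF2AK2 (difference 0.193) and ADAR (0.221) were at -0.05 and -0.06 with siRNA 1 and 0.14 and 0.16 with siRNA 2. The second TRIM25 probe, A_23_P15326 (difference 0.410), was at -0.01 and 0.40. The siRNA 1 values of EIF2AK2, ADAR and TRIM25 were within 1 technical SD of 0, and that of DDX58 was not.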

How the results depend on the processing

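Of 263 comparisons of a sensor ratio or difference with its value under an alternative, the alternative changed the value in 158, and 156 of these stayed on the same side of 2-fold. No ratio at or above 2-fold changed sign. The exceptions were the ratios of DHX58, too dim in Non-T cells, which were 1.09 and 1.22 with the scanner software's processed signals, so that 1 sensor gene was higher with siRNA 1 and 3 with siRNA 2. Over the alternatives the siRNA 2 ratio of IFIH1 ranged from 1.34 to 1.66 and that of TLR3 from 1.04 to 1.56. The median sensor ratio with siRNA 1 was 0.11 with processed signals, 0.18 with median centring and 0.12 with the mean of all probes. With siRNA 2 it was 0.63, 0.50 and 0.64 with processed signals, the authors' ratios and median centring. These medians are over all 8 genes and so include the dim DHX58, also with processed signals, where its ratios were 1.09 and 1.22. The median difference was 0.58 with a stricter filter, which left out DHX58, and 0.26 with the mean of all probes. Median centring moved the median of all genes to 0.13 and 0.12, and the genes at least 2-fold higher and lower from 40 and 117 to 137 and 56 (siRNA 1) and from 118 and 205 to 266 and 101 (siRNA 2). With processed signals they were 778 and 298, and 994 and 474. The limma count over both siRNAs fell from 1 to 0 without background correction, with median signals, with processed signals, with the authors' ratios and with median centring (unadjusted p under 0.05 in 4077, 4023, 3902, 4141 and 5707 genes). The cause was not tested. Each ratio already pairs SUB1 siRNA RNA with the Non-T RNA of its own array. No further pairing could be fitted, because each siRNA has a single array. For the same reason an array could not be left out and tested, and both arrays lay on 1 slide, so a slide block could not be fitted. DHX58 and the interferon ligands were limited by signal over background.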
